A study of Homo sapiens with 3 samples.

Results

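The 54 genes described here carry and interpret signals of the TGF-beta and BMP families. They were taken by symbol from the 36601 genes of the count tables, and comprise 14 ligands, 13 receptors and receptor-like proteins, 11 extracellular antagonists or matrix proteins, 8 SMADs, the 4 ID genes and 4 intracellular modulators. All 54 had at least 1 UMI (unique molecular identifier, a counted mRNA molecule) in some library, 51 passed the filter on low counts, and BMP6, INHBB and NODAL did not. The study asked which signals pass among the cells that arise when human pluripotent stem cells are turned into induced melanocytes. Droplet libraries were made at day 23 (D23), day 32 (D32) and day 44 (D44), with 1 library a day, from cells that had been frozen. D32 and D44 came from 1 induction and were sequenced together, whereas D23 had its own induction and sequencing run. Titles and source labels disagree on the starting cells, with induced pluripotent stem cells in the former and H9, a human embryonic stem cell line, in the latter, and the sources used here do not settle it. Every culture passed through embryoid bodies in medium with Wnt3a-conditioned medium, SCF, Endothelin-3, bFGF, cholera toxin, dexamethasone and TPA, the last of these left out after the first passage, when 0.5% serum was added. The labels name no inhibitor or added ligand of either pathway.

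TGF-beta, activin and BMP ligands are secreted dimers that bring type II and type I receptor kinases together. TGF-beta and activin receptors phosphorylate SMAD2 and SMAD3, and BMP receptors phosphorylate SMAD1, SMAD5 and SMAD9, which then act in the nucleus with SMAD4. Noggin, gremlin and related proteins trap ligands outside the cell, latent TGF-beta binding proteins hold TGF-beta in the matrix, and SMAD6 and SMAD7 feed back on the receptors. In skin, both families act on melanocytes and their precursors, and TGF-beta is known for holding melanocyte stem cells of the hair follicle in a quiescent state.

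Cells were placed in 3 classes from marker genes that hold no member of the pathway list. C1-like cells carried melanocyte markers such as PMEL and MLANA, C2-like cells mesenchymal markers such as COL1A1 and PDGFRB, and C3-like cells neural markers such as ZIC1 and NEFM. Of 15630 cells kept from 22522 barcodes, C1-like cells made up 64.6% at D23, 91.9% at D32 and 99.2% at D44. C2-like cells numbered 328, 292 and 18 in that order, and C3-like cells 891, 95 and 5. The 5 C3-like cells of D44 were too few for a test, so their levels are given only as values. C1-like cells held 4434 to 12603 CPM (UMIs of a gene per 1000000 UMIs of its class in that library) of the 8 melanocyte markers summed, against 88.5 to 286 CPM in the other classes. C3-like cells were not free of mesenchymal RNA, since the 10 mesenchymal markers summed to 1328 to 2789 CPM there, against 2690 to 8723 CPM in the C2-like class and 69.1 to 358 CPM in the C1-like class. POU5F1 and NANOG, which define pluripotent cells, were at 0.246 CPM or less in every class and library. The 5 pluripotent markers summed to 16.2 to 82.5 CPM, nearly all of it DPPA4, which was at 13.4 to 80.1 CPM. Median UMIs per kept cell were 12574 at D23, 36375 at D32 and 42940 at D44. Between 9 and 28 barcode sequences were shared by a pair of libraries.

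Most ligands were far below their C2-like levels in the C1-like class. All 9 ligands past the threshold in the comparison of C1-like with C2-like cells were lower in the C1-like cells (TGFB1, TGFB2, TGFB3, BMP2, BMP4, BMP5, BMP7, GDF6 and INHBA), out of 11 tested. Their number is part of 22 members lower and 2 higher among 51, while 11.2% of all 15258 genes tested were lower and 10.2% higher, or 21.4% in either direction. The median log2 fold change was -5.37 over the 11 ligands and 0.09 over all genes. TGFB3, BMP2, BMP5, BMP7, GDF6 and INHBA, at most 0.58 CPM in C1-like sums, passed the filter on low counts through the other classes. For them only a lower C1-like level could be called, so the count and the median are no test of direction. Adjusted p-values here and throughout are from edgeR's quasi-likelihood test over UMIs summed per library and class, with Benjamini-Hochberg adjustment over all genes. Each value in a library comes from its own sum, and a threshold of 0.05 was used.

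TGFB1, the most widely expressed TGF-beta, stood at 4.55, 2.43 and 1.27 CPM in the C1-like class, taking the libraries in the order D23, D32, D44. In C2-like cells it stood at 44.7, 43.1 and 51.3 CPM in the same order. C3-like cells held 12.8 and 5.75 CPM at D23 and D32, and 98.1 CPM in the 5 cells of D44. The classes did not overlap between C1-like and C2-like cells, nor between C1-like and C3-like cells. For C1-like over C2-like sums the log2 fold change was -4.13 ± 0.37 (SE, adjusted p = 0.000437). Against C3-like cells it was -1.51 ± 0.41 (adjusted p = 0.0362), a call lost without D23 (adjusted p = 0.138) and with clusters in place of the marker limits (adjusted p = 0.0919). Fits without D23, without D32 or with clusters have 1 C3-like sum, which is then assumed to vary like the other classes. Here and below, a call against C3-like cells that is lost or gained in such a fit cannot be told apart from the loss of a sum. Fits without D23 or without D32 also have hardly more sums than fitted terms. Their p-values reflect little of the spread among libraries, so a call lost or gained there, between any classes, is not evidence about them.

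TGFB2, a second TGF-beta ligand, had the opposite order over the libraries within C1-like cells, at 1.74 CPM (95% Poisson interval 1.32 to 2.26), 3.97 CPM and 7.14 CPM. Day and induction cannot be told apart between D23 and the later libraries. In C2-like cells its levels were 93.7, 25.3 and 29.1 CPM, so that every C2-like sum lay above every C1-like sum. C3-like cells held 11.5 CPM at both D23 and D32. C1-like cells were lower than C2-like cells by a log2 fold change of -3.44 ± 0.73 (adjusted p = 0.015), which became -3.83 with an adjusted p of 0.0527 after 10% of each sum was taken off as free RNA. TGFB3, the third TGF-beta, had low levels of 0.519, 0.256 and 0.321 CPM in the C1-like class and of 5.41, 1.16 and 5.13 CPM in the C2-like class. Its log2 fold change was -2.93 ± 0.58 (adjusted p = 0.0117), and without D23 the adjusted p was 0.0911.

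BMP4, a BMP that patterns mesoderm and skin appendages, varied between the libraries within the C2-like class, at 39.8, 409 and 145 CPM. C1-like cells held 6.71, 4.30 and 1.98 CPM, and C3-like cells 11.8 and 6.63 CPM at D23 and D32. All C2-like sums lay above the sums of both other classes. C1-like over C3-like sums did not pass (-0.92 ± 0.87, adjusted p = 0.487), and without D32 the value was -1.39. The log2 fold change for C1-like over C2-like sums was -5.37 ± 0.86 (adjusted p = 0.00505). For C2-like over C3-like sums it was 4.45 ± 1.03 with an adjusted p of 0.067, and 6.01 without D23 and 2.82 without D32. The step in BMP4 between D23 and D32 came with a change in the C2-like cells themselves. Epithelial markers (6 genes, 3 or 4 of them with a UMI) summed to 138 CPM at D23, 4546 CPM at D32 and 993 CPM at D44 in the C2-like class, from KRT8 and KRT18, with KRT5 and KRT14 at 0. The part of these cells in the level of BMP4 was not tested.

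BMP2 and INHBA, the latter a subunit of activins, had nearly constant levels in the C2-like class. BMP2 was at 18.4, 18.4 and 13.7 CPM there, at 4.31 and 2.65 CPM in the C3-like class of D23 and D32, and at 0.153, 0.135 and 0.0415 CPM in the C1-like class. INHBA was at 34.9, 28.4 and 41.0 CPM in the C2-like class, at 6.83 and 12.4 CPM in the C3-like class, and at 0.122, 0.135 and 0.0302 CPM in the C1-like class. Neither gene overlapped between C1-like cells and either other class. C1-like over C2-like sums gave log2 fold changes of -7.24 ± 0.44 for BMP2 and -8.55 ± 0.53 for INHBA (adjusted p = 0.000148 for each). Against C3-like cells the values were -4.65 ± 0.48 (adjusted p = 0.000867) and -6.38 ± 0.55 (adjusted p = 0.000439).

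BMP5 and BMP7, close relatives that act through the same type I receptors, were highest in the C3-like class at D23. BMP5 stood at 96.3 and 34.5 CPM in the C3-like class of D23 and D32, at 5.65, 17.8 and 1.71 CPM in the C2-like class, and at 0.58, 0.108 and 0 CPM in the C1-like class. BMP7 stood at 62.5 and 29.6 CPM in the C3-like class, at 2.21, 44.4 and 6.84 CPM in the C2-like class, and at 0.153, 0.26 and 0.0264 CPM in the C1-like class. For both genes the C1-like sums lay below all others, while the C2-like and C3-like sums of BMP7 overlapped. Log2 fold changes of C1-like over C3-like sums were -7.87 ± 1.00 for BMP5 (adjusted p = 0.00188) and -8.14 ± 1.24 for BMP7 (adjusted p = 0.00379). Against C2-like cells they were -5.93 ± 0.99 (adjusted p = 0.00596) and -6.73 ± 1.19 (adjusted p = 0.00743). C2-like over C3-like sums differed by -1.94 ± 0.83 for BMP5 (adjusted p = 0.272) and -1.41 ± 1.11 for BMP7 (adjusted p = 0.558). Without D32 these differences were -3.87 and -4.15, and without D23 BMP7 turned to 0.80.

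GDF6 and GDF7 were each highest in 1 class of D23. GDF6, a BMP-type ligand of joints and neural crest, was at 24.6, 1.74 and 0 CPM in the C2-like class, and at 0.305, 0.00897 and 0.00755 CPM in the C1-like class. GDF7, a dorsal neural tube ligand, was at 24.8 and 2.21 CPM in the C3-like class of D23 and D32, and at or below 0.492 CPM in every other sum. The 18 C2-like cells of D44 held no UMI of either, which allows up to 5.13 CPM, so for GDF6 the order of the classes held in 2 of 3 libraries. GDF6 was below the C2-like class in C1-like sums (-6.54 ± 0.61, adjusted p = 0.000543) and GDF7 below the C3-like class in C1-like sums (-7.60 ± 0.66, adjusted p = 0.000439). GDF11, which signals through activin receptors, was the exception, with 20.7 to 34.3 CPM in every class and library, and log2 differences of 0.09 to 0.20 among classes. BMP6, INHBB and NODAL, below the filter, reached at most 0.988, 10.3 and 0.00755 CPM, and the value for INHBB came from the 5 C3-like cells of D44.

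**Figure D1:**
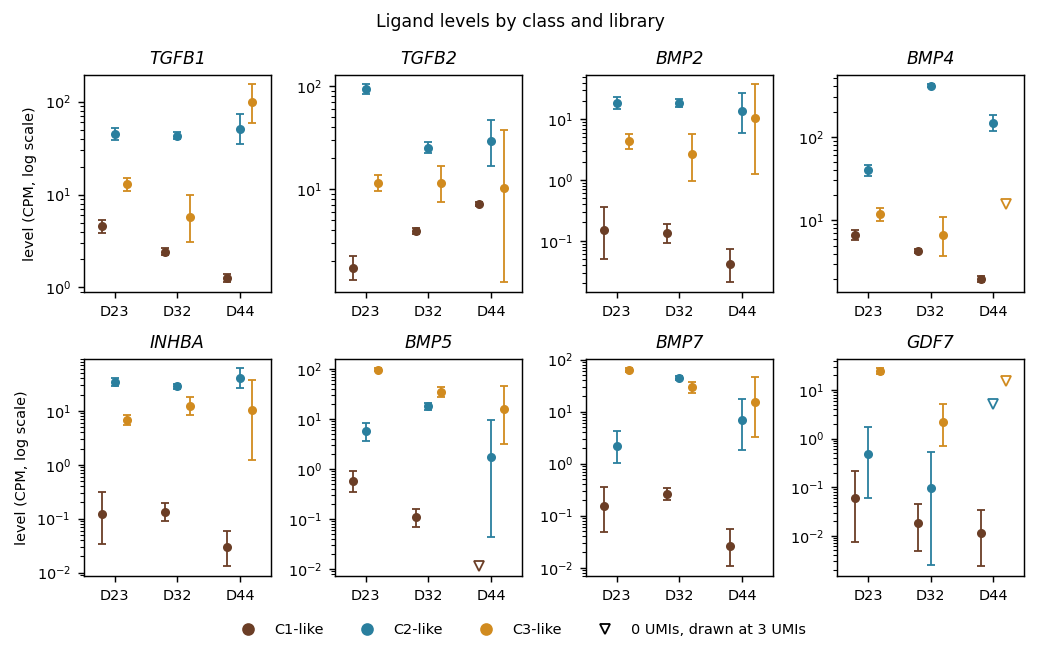
Levels of 8 ligands in CPM on a log axis, by library on the horizontal axis and by class in colour, as points with exact 95% Poisson intervals for counting error, and open triangles for 0 UMIs drawn at the level of 3 UMIs. C1-like points are the lowest of each library for BMP2, INHBA and BMP7, and TGFB2 in the C1-like class is at 1.74 CPM at D23 and 7.14 CPM at D44, which are different inductions.

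Free RNA in droplets gives every cell a few molecules of what its neighbours make, so the C1-like levels were set beside the mesenchymal markers measured the same way. These markers also set the classes, which holds their C1-like levels low and their C2-like levels high. Their percentages are therefore no measure of free RNA, and the part of free RNA in the ligand levels was not tested. The median of the 10 mesenchymal markers in the C1-like class was 0.592%, 0.618% and 1.67% of the C2-like level at D23, D32 and D44, and the highest marker reached 10.6%, 14.1% and 5.98%. INHBA in the C1-like class was at 0.35%, 0.474% and 0.0736% of its C2-like level, below that median in each library. BMP2 was at 0.827%, 0.733% and 0.303%, which is above the median at D23 and D32 and below it at D44. TGFB2 was at 1.86%, 15.7% and 24.6%, above the highest marker at D32 and D44. BMP4 was at 16.9% at D23, above the highest marker, and at 1.05% and 1.37% later. TGFB1 fell within the range of the markers in each library, at 10.2%, 5.64% and 2.47%.

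A class with a low level can still hold most molecules of a ligand when it holds most cells. C1-like cells held 68.3%, 94.6% and 99.7% of all UMIs of classed cells at D23, D32 and D44. Of ligands with at least 20 UMIs, most UMIs came from C1-like cells for 1 of 11 at D23 (GDF11), for 4 of 10 at D32 and for 6 of 7 at D44. The matching share of all genes was not counted. BMP2 was among the 6 at D44 with only 11 of 21 UMIs (52.4%, 95% interval 29.8% to 74.3%). For TGFB2 the C1-like part was 10.1%, 75.4% and 99.0%, and for TGFB1 31.4%, 54.1% and 87.3%. For BMP4 it was 42.9%, 18.4% and 86.1%, and at D32 the 292 C2-like cells held 81.3% of BMP4 UMIs. INHBA stayed mostly in the C2-like class, with 64.0%, 83.5% and 70.6% of its UMIs, the last of only 34 molecules in D44. BMP5 and BMP7 came from C3-like cells at D23 (96.2% and 98.0%) and mostly from C2-like cells at D32 (64.3% and 78.6%). These shares follow the number of cells in each class as well as the level per class.

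**Figure D2:**
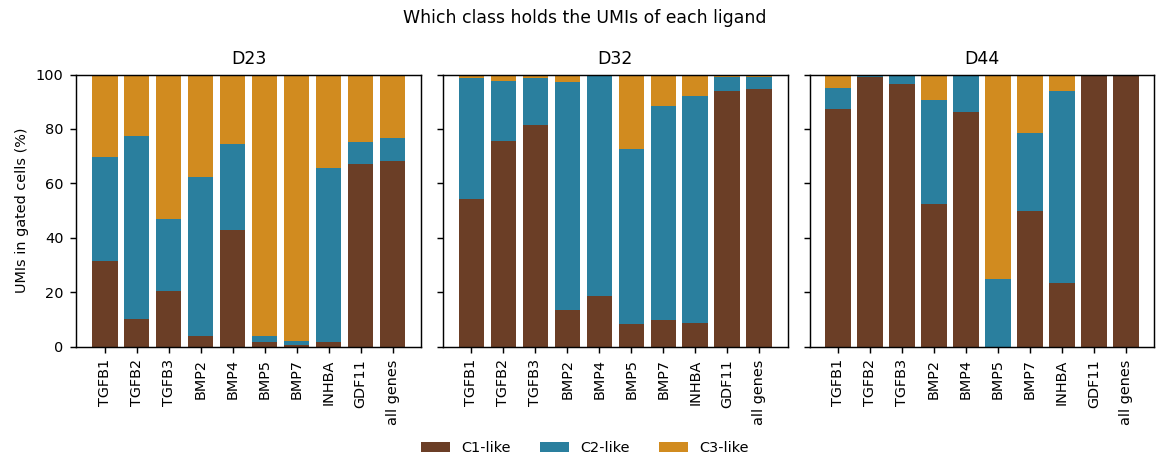
Share of the UMIs of 9 ligands, and of all genes, held by each class (stacked bars, percent of UMIs in classed cells) in the 3 libraries. TGFB2 is 10.1% C1-like at D23 and 99.0% at D44, from another induction, where it is close to the bar for all genes. Bars for BMP2, BMP5, BMP7 and INHBA at D44 rest on few molecules.

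Few receptors passed the test between classes. None of the 13 receptors and receptor-like genes was lower in the C1-like class at the threshold in either comparison, 2 were higher than in the C2-like class, 1 was higher than in the C3-like class, and none passed between C2-like and C3-like cells. Over all genes 10.2% and 10.0% were higher in the C1-like sums of these comparisons, and 3.2% passed in either direction between C2-like and C3-like sums. A gene that did not pass is not shown to be level between the classes. At an unadjusted p under 0.05 the counts lower in C1-like sums were 0 and 1, and between C2-like and C3-like sums 1 was higher and 2 were lower. DESeq2 called 1 receptor lower in the C1-like than the C3-like sums (TGFBR1) and 2 lower in the C2-like than the C3-like sums. The median log2 fold change of the receptors was 0.22 for C1-like over C2-like sums and 0.54 for C1-like over C3-like sums, beside 0.09 and 0.10 over all genes. For C1-like over C3-like sums 21 members passed in all, 20 lower and 1 higher, beside 12.8% of all genes tested lower and 10.0% higher.

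ACVR2B, an activin type II receptor, was at 23.3, 19.7 and 22.0 CPM in the C1-like class and at 10.1, 7.63 and 5.13 CPM in the C2-like class. BMPR1B, a BMP type I receptor, was at 11.9, 7.26 and 6.29 CPM in the C1-like class and at 2.21, 1.35 and 0 CPM in the C2-like class. For both genes the classes did not overlap. Log2 fold changes were 1.46 ± 0.25 for ACVR2B (adjusted p = 0.00719) and 2.56 ± 0.51 for BMPR1B (adjusted p = 0.0116). In C3-like cells of D23 and D32 the levels were 28.0 and 18.6 CPM for ACVR2B and 13.8 and 3.09 CPM for BMPR1B, which overlap the C1-like levels. ACVR1, a type I receptor shared by BMPs and activins, was at 20.4, 15.8 and 12.5 CPM in the C1-like class, against 11.6 and 10.6 CPM in the C3-like class of D23 and D32. Its log2 fold change was 0.82 ± 0.24 (adjusted p = 0.0432), and the call was lost without D23 (adjusted p = 0.56) or without D32 (adjusted p = 0.443).

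The receptors of TGF-beta itself were present in all classes. TGFBR1, the type I receptor, stood at 61.9, 41.4 and 43.7 CPM in the C1-like class, at 106, 43.3 and 68.4 CPM in the C2-like class, and at 92.2 and 114 CPM in the C3-like class of D23 and D32. TGFBR2, the type II receptor, stood at 19.2, 27.6 and 34.8 CPM in the C1-like class, at 23.1, 28.4 and 49.6 CPM in the C2-like class, and at 18.6 and 8.40 CPM in the C3-like class. Over the libraries C1-like and C2-like levels of both genes overlapped, while within each library the C1-like level was the lower one. The log2 difference of C1-like from C2-like cells was -0.43 for TGFBR1 and -0.16 for TGFBR2, with bounds 2 SE away of -0.95 and 0.08 for the former and of -0.82 and 0.49 for the latter. Against C3-like cells neither passed (adjusted p = 0.0724 and 0.188), and without D23 the values were -1.41 for TGFBR1 and 1.80 for TGFBR2.

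BMPR2, the main BMP type II receptor, was at 63.6, 54.2 and 59.3 CPM in the C1-like class, at 67.8, 37.2 and 63.3 CPM in the C2-like class, and at 55.6 and 34.0 CPM in the C3-like class. BMPR1A, a BMP type I receptor, was at 18.3, 12.6 and 12.0 CPM in the C1-like class, at 26.5, 15.7 and 23.9 CPM in the C2-like class, and at 22.2 and 25.6 CPM in the C3-like class. ACVR1B, the activin type I receptor, ranged from 4.92 to 8.02 CPM over the 8 tested sums, and ACVR2A, the other activin type II receptor, from 1.71 to 18.2 CPM. Within each library the C1-like level of BMPR1A was below the C2-like one. Over the libraries C1-like and C2-like levels of each of these genes overlapped, except ACVR1B, whose C1-like levels of 8.02, 7.31 and 7.30 CPM lay above the C2-like levels of 4.92, 5.61 and 5.13 CPM without passing the threshold (0.57 ± 0.28, adjusted p = 0.201). ACVRL1, a type I receptor of endothelial cells, was at most 1.93 CPM in the tested sums.

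ENG, TGFBR3 and BAMBI bind ligands or receptors without a kinase of their own, and 2 of them differed widely between libraries. BAMBI, a decoy receptor, stood at 43.1, 173 and 180 CPM in the C1-like class, at 26.1, 155 and 27.4 CPM in the C2-like class, and at 52.0 and 85.3 CPM in the C3-like class. C1-like over C2-like sums gave 1.02 ± 0.56 (adjusted p = 0.249), with 1.22 without D23 and 1.72 without D32. ENG, a co-receptor, was at 17.7, 21.6 and 26.0 CPM in the C1-like class but at 37.1, 5.90 and 61.6 CPM in the C2-like class. Its log2 difference was -0.33 ± 0.73 (adjusted p = 0.803), and -1.02 without D32. Against C3-like cells neither passed, and the values were 1.81 for BAMBI without D23 and 1.60 for ENG without D32. TGFBR3 ranged from 3.09 to 14.3 CPM over the tested sums.

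**Figure D3:**
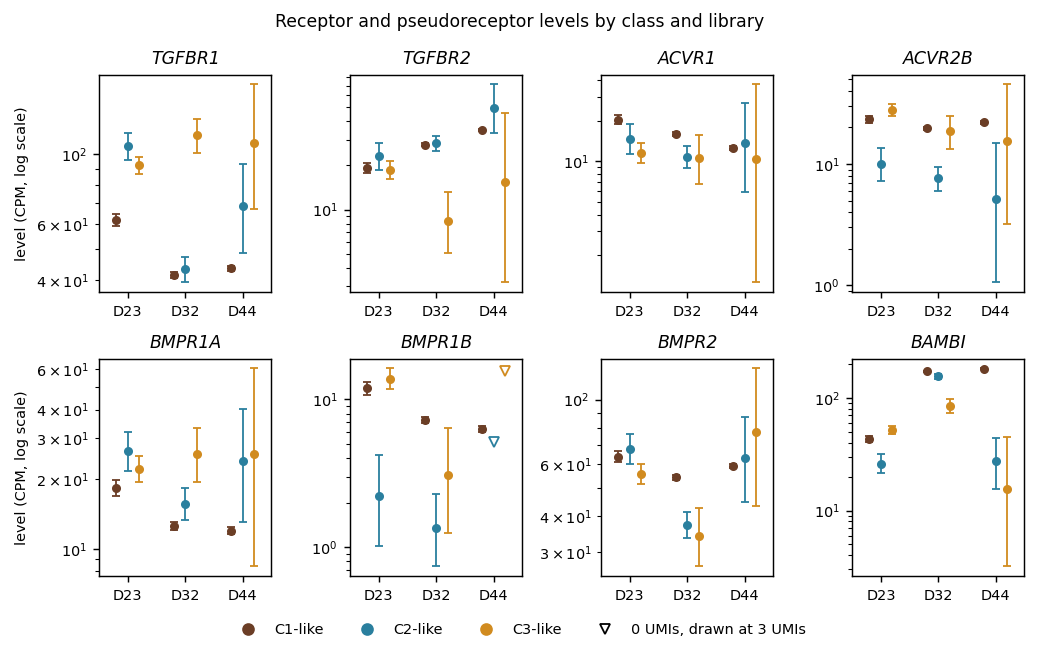
Levels of 7 receptors and of the decoy receptor BAMBI in CPM on a log axis, by library and class, drawn as in the plot of ligand levels. Points of the 3 classes lie close together for BMPR2, and C2-like points are the lowest of each library for ACVR2B (10.1, 7.63 and 5.13 CPM).

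Several extracellular antagonists and matrix proteins were lower in the C1-like class. Against C2-like cells 6 of 11 passed as lower (NOG, GREM1, LTBP1, LTBP2, FSTL3 and TGFBI), and against C3-like cells 7 of 11 (NOG, GREM1, CHRD, FST, LTBP2, LTBP4 and TGFBI), with median log2 fold changes of -2.59 and -3.07 over the 11, beside 11.2% and 12.8% of all genes lower. NOG, the secreted BMP trap noggin, was at 0.0305, 0.0628 and 0.0113 CPM in the C1-like class, at 3.69, 10.2 and 1.71 CPM in the C2-like class, and at 3.77 and 7.51 CPM in the C3-like class. GREM1, another BMP trap, was at 0.824, 0.319 and 0.241 CPM in the C1-like class, at 47.9, 18.9 and 18.8 CPM in the C2-like class, and at 6.47 and 19.4 CPM in the C3-like class. Levels of both genes in the C1-like class lay below every other sum. Both passed the filter on low counts through the other classes, so only a lower C1-like level could be called. C1-like over C2-like sums gave -7.06 ± 0.53 for NOG (adjusted p = 0.000254) and -5.97 ± 0.62 for GREM1 (adjusted p = 0.000836). Against C3-like cells the values were -6.70 ± 0.53 (adjusted p = 0.000353) and -4.44 ± 0.66 (adjusted p = 0.00354).

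CHRD, the BMP trap chordin, was at 0.58, 0.121 and 0.0113 CPM in the C1-like class and at 2.52 and 15.0 CPM in the C3-like class of D23 and D32. FST, the activin trap follistatin, was at 0.427, 0.79 and 3.46 CPM in the C1-like class and at 4.94 and 9.72 CPM in the C3-like class. Both were below the C3-like class in C1-like sums, by -4.69 ± 1.22 for CHRD (adjusted p = 0.0315) and -3.07 ± 0.81 for FST (adjusted p = 0.0339). CHRD lost the call without D32 (adjusted p = 0.223) and without D44 (adjusted p = 0.0517), and FST with the stricter marker limits (adjusted p = 0.0548) and without the library term (adjusted p = 0.259). Against C2-like cells neither passed, at -2.59 for CHRD and -2.12 for FST (adjusted p = 0.186 and 0.0877). Without D23 the values were -3.83 and -2.19, and without D44 FST passed (adjusted p = 0.0179). FSTL3, a follistatin relative, was at 6.74, 6.89 and 6.69 CPM in the C1-like class and at 16.5, 13.9 and 12.0 CPM in the C2-like class, a log2 fold change of -1.01 ± 0.27 (adjusted p = 0.0372). That call was lost in 8 of 15 alternative settings, among them without D23 (adjusted p = 0.205) and without D32 (adjusted p = 0.277).

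The latent TGF-beta binding proteins differed in their pattern over the classes. LTBP1 was at 3.87, 2.72 and 2.08 CPM in the C1-like class, at 24.8, 20.5 and 20.5 CPM in the C2-like class, and at 6.11 and 2.21 CPM in the C3-like class, so that C1-like and C3-like cells overlapped and C2-like cells stood apart. LTBP2 was at 0.214, 0.0763 and 0.102 CPM in the C1-like class, at 18.4, 13.7 and 10.3 CPM in the C2-like class, and at 22.2 and 2.21 CPM in the C3-like class. C1-like cells were lower than C2-like cells by -2.86 ± 0.31 for LTBP1 (adjusted p = 0.001) and by -6.84 ± 0.66 for LTBP2 (adjusted p = 0.000596), and LTBP2 was also lower than in C3-like sums (-5.98 ± 0.72, adjusted p = 0.00148). LTBP3 did not pass in any comparison, with 7.13 to 30.8 CPM over the tested sums. LTBP4 was lower than in the C3-like class (-1.15 ± 0.27, adjusted p = 0.0223), at 10.1, 8.29 and 8.17 CPM against 28.7 and 17.7 CPM, but not without D23 (adjusted p = 0.367) or D32 (adjusted p = 0.0614). TGFBI, a TGF-beta-induced matrix protein, was at 1.31, 9.38 and 19.5 CPM in the C1-like class, at 207, 151 and 414 CPM in the C2-like class, and at 341 and 56.1 CPM in the C3-like class. It was lower in the C1-like class by -4.60 ± 0.93 and -4.69 ± 1.13 (adjusted p = 0.0129 and 0.0243), and both calls were lost without D44 (adjusted p = 0.0612 and 0.0616) and after 10% of each sum was taken off as free RNA (adjusted p = 0.0715 and 0.107). The log2 fold changes were -4.86 and -4.87 in the former setting and -4.99 and -5.19 in the latter. FSTL1, a secreted glycoprotein, did not pass in any comparison, with 77.1 to 246 CPM over the tested sums.

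**Figure D4:**
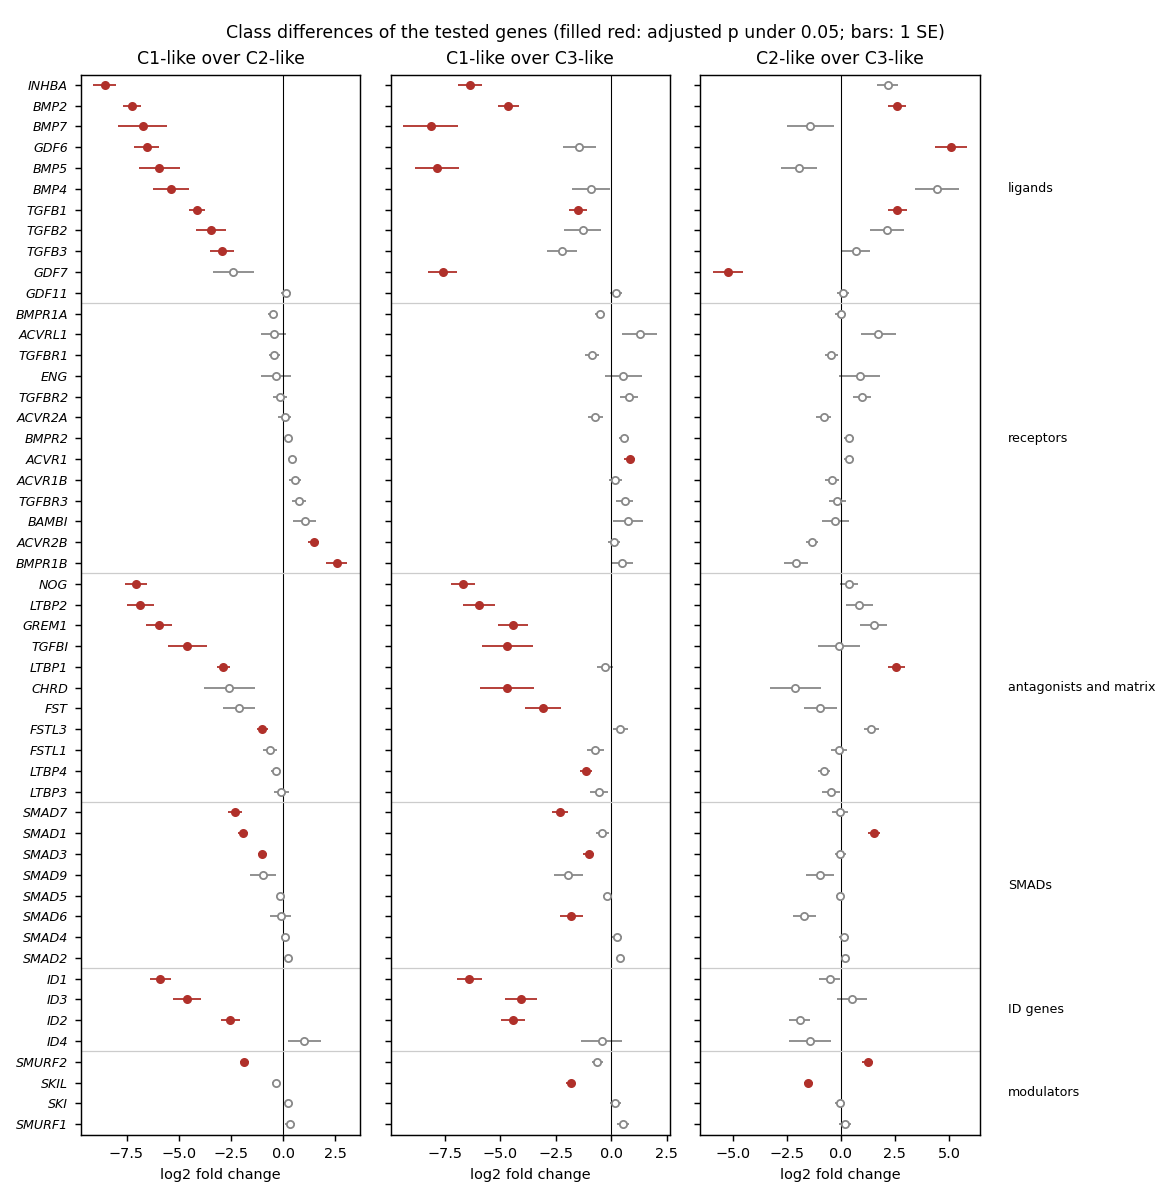
Log2 fold changes of the 51 tested genes in the 3 class comparisons, grouped by role, as points with bars of 1 SE, filled red where the adjusted p was under 0.05. All filled points of ligands, antagonists, SMADs and ID genes lie left of 0 in both C1-like comparisons, down to -8.55 for INHBA against the C2-like class, while the medians of the receptors are 0.22 and 0.54.

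Among the SMADs, 3 of 8 were lower in C1-like sums in each comparison, beside 11.2% and 12.8% of all genes. SMAD2 and the shared partner SMAD4 did not pass in any comparison, and for C1-like over C2-like sums their log2 differences were 0.21 ± 0.15 and 0.09 ± 0.20. SMAD5 likewise did not pass, at 134, 58.5 and 54.4 CPM in the C1-like class and 141, 74.6 and 65.0 CPM in the C2-like class. SMAD1, a BMP-side SMAD, was at 14.6, 9.86 and 10.2 CPM in the C1-like class and at 62.7, 48.7 and 25.6 CPM in the C2-like class, without overlap, and lower in the former by -1.92 ± 0.24 (adjusted p = 0.00192). SMAD3, on the TGF-beta side, was at 12.1, 8.35 and 8.80 CPM in the C1-like class, at 19.2, 19.4 and 23.9 CPM in the C2-like class, and at 19.2 and 26.5 CPM in the C3-like class. Its log2 fold changes were -0.99 ± 0.22 (adjusted p = 0.018) and -1.02 ± 0.25 (adjusted p = 0.0235), and without D32 neither passed (adjusted p = 0.209 and 0.481). The first was also lost without D44 (adjusted p = 0.0524).

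The inhibitory SMADs rise with signalling in many cell types. SMAD7 stood at 5.55, 4.73 and 3.54 CPM in the C1-like class, at 14.7, 35.7 and 22.2 CPM in the C2-like class, and at 28.7 and 26.5 CPM in the C3-like class. C1-like levels lay below all others, by -2.30 ± 0.34 against C2-like cells (adjusted p = 0.00362) and -2.32 ± 0.37 against C3-like cells (adjusted p = 0.0045). SMAD6, which acts mainly on BMP receptors, was at 2.04, 1.87 and 2.16 CPM in the C1-like class and at 7.10 and 9.72 CPM in the C3-like class (-1.81 ± 0.52, adjusted p = 0.0435). In C2-like cells it was at 2.21, 2.90 and 0 CPM, which overlaps C1-like cells. The SMAD6 call was lost without D23 (adjusted p = 0.146) or D32 (adjusted p = 0.372). SMAD9 did not pass in any comparison, at 0.947 to 5.75 CPM.

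The ID genes encode proteins that block basic helix-loop-helix transcription factors and are classical direct targets of BMP receptors through SMAD1 and SMAD5. In 3 of the 4, levels in the C1-like class lay below those of every C2-like and C3-like sum. The share of all genes with this order was not counted. ID1 stood at 2.20, 8.39 and 7.40 CPM in the C1-like class, at 173, 367 and 457 CPM in the C2-like class, and at 99.7 and 1399 CPM in the C3-like class of D23 and D32. ID2 stood at 7.38, 10.7 and 9.84 CPM in the C1-like class, at 118, 42.9 and 32.5 CPM in the C2-like class, and at 344 and 214 CPM in the C3-like class. ID3 stood at 6.25, 50.9 and 46.7 CPM in the C1-like class, at 480, 469 and 874 CPM in the C2-like class, and at 129 and 1155 CPM in the C3-like class. Each was several-fold lower in the C1-like class in each library.

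C1-like over C2-like sums gave log2 fold changes of -5.88 ± 0.50 for ID1 (adjusted p = 0.000389), -2.53 ± 0.47 for ID2 (adjusted p = 0.00926) and -4.60 ± 0.67 for ID3 (adjusted p = 0.00333). Against C3-like cells the values were -6.40 ± 0.55 (adjusted p = 0.000439), -4.44 ± 0.54 (adjusted p = 0.00161) and -4.07 ± 0.71 (adjusted p = 0.00689). ID1 passed in every setting tried. ID2 and ID3 lost both calls after 10% of each sum was taken off as free RNA, with adjusted p of 0.213 and 0.0695 against C2-like cells and of 0.0908 and 0.106 against C3-like cells, although their log2 fold changes were then larger in size (-3.21 and -5.48 against C2-like cells). After each cell was thinned to 5000 UMIs, 0.66%, 2.69% and 3.10% of C1-like cells had an ID1 UMI, against 39.4%, 55.8% and 55.6% of C2-like cells. With the counts as deposited the shares were 2.04%, 14.5% and 18.2%, against 57.0%, 83.6% and 83.3%. For comparison, INHBA had a UMI in 0.0830%, 0.0181% and 0% of thinned C1-like cells, the last of which allows up to 0.0520%.

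ID4 passed in no comparison of the 8 sums. It was at 78.0, 23.1 and 42.5 CPM in the C1-like class, at 68.6, 6.67 and 8.55 CPM in the C2-like class, and at 32.9 and 88.4 CPM in the C3-like class. C1-like levels overlapped those of both other classes, with log2 differences of 1.00 ± 0.79 from C2-like cells (adjusted p = 0.423) and -0.44 ± 0.93 from C3-like cells (adjusted p = 0.774). Without D23 these differences were 1.97 and -1.69, and leaving out D32 turned the second to 1.74.

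**Figure D5:**
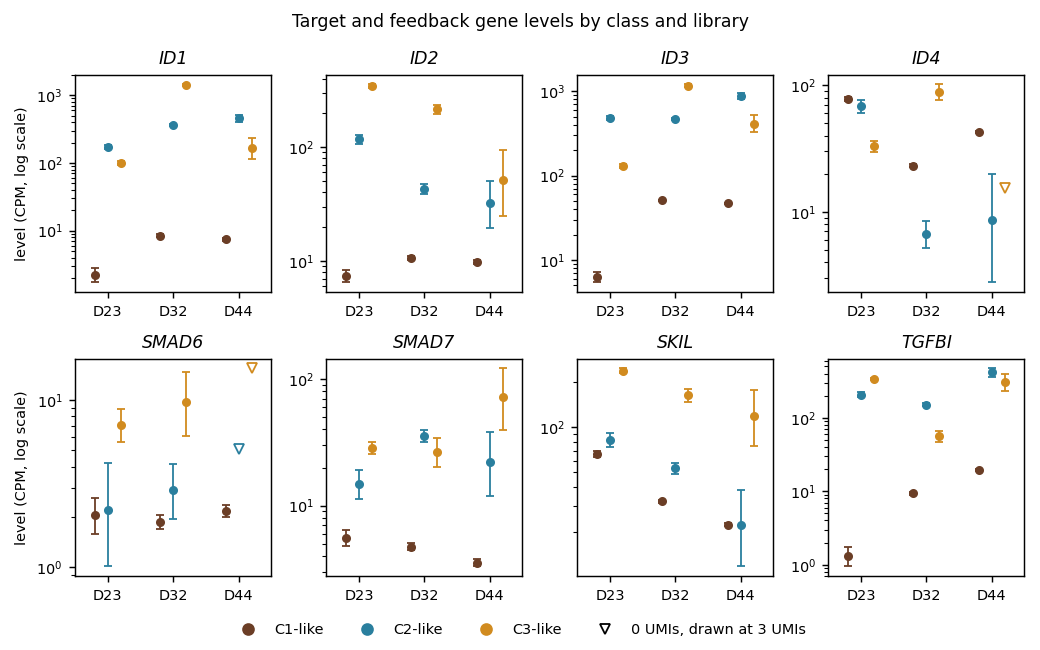
Levels of ID1 to ID4, SMAD6, SMAD7, SKIL and TGFBI in CPM on a log axis, by library and class, drawn as in the plot of ligand levels. C1-like points lie lowest in each library for ID1, ID2, ID3, SMAD7 and TGFBI, and ID4 has no such order.

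The promoters of the ID genes and of SMAD6, all target genes, are shown. Levels of ID1, ID2 and ID3 set the C1-like class apart, and those of ID4 did not. SMAD6 passed only for C1-like over C3-like sums, a call lost in 6 of 15 alternative settings. SMAD proteins bind the letters GTCT or their reverse complement AGAC, and 2 such sites back to back form GTCTAGAC. Each sequence is the 250 bases before the RefSeq start of the gene on GRCh38.p14, written 5′ to 3′ on the strand of the gene, with GTCT and AGAC in capitals.
ID1: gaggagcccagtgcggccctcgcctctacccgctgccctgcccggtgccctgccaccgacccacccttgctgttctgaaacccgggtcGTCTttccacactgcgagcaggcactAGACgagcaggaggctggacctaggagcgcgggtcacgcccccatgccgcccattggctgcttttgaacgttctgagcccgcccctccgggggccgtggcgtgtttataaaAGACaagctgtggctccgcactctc
ID2: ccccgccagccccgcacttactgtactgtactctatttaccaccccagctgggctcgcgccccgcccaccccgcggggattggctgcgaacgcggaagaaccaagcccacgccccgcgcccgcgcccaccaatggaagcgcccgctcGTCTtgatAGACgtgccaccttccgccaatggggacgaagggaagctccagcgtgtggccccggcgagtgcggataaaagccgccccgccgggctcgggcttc
ID3: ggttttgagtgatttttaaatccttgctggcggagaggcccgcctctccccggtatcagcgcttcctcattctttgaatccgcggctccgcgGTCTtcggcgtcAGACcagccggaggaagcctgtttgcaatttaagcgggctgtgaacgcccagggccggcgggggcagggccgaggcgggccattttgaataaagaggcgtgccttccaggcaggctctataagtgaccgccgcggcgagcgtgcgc
ID4: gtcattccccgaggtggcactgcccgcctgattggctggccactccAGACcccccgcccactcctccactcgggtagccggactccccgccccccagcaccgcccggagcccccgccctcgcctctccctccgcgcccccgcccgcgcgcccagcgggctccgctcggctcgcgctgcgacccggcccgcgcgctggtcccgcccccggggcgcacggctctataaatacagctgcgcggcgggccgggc
SMAD6: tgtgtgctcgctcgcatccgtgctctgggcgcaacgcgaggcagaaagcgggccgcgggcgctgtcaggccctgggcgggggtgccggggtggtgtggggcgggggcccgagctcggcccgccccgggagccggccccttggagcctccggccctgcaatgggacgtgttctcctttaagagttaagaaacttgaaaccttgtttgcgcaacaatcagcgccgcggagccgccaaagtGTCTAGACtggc
The windows lie at chr20:31605039-31605288 (plus strand) for ID1, chr2:8681806-8682055 (plus strand) for ID2, chr1:23559502-23559751 (minus strand) for ID3, chr6:19837120-19837369 (plus strand) for ID4 and chr15:66701986-66702235 (plus strand) for SMAD6. ID1 held 3 sites of the letters GTCT on either strand, ID2 and ID3 2 each, ID4 1, and SMAD6 2 that together make 1 GTCTAGAC. Windows with GTCT made up 77.5% of all 35116 promoter windows of that length, and those with GTCTAGAC 0.182%. Of 80 windows of the members, 62 held GTCT and 1 held GTCTAGAC. The number of sites per window was not counted over all windows, so the counts of single genes have no background. The letters GGCGCC were searched as well, and were in none of the windows shown and in 16.4% of all windows. The window of BAMBI, also searched and not shown, held 4 sites of GTCT and 3 of GGCGCC. A match is a run of letters, not a bound site. Of the 54 genes, 48 had a window in the table used, and BMP2, BMP7, GDF6, ACVRL1, NOG and SKI had none.

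Of the 4 modulators, SMURF2 and SKIL passed in at least 1 comparison, whereas SKI and SMURF1 passed in none. SMURF2, a ubiquitin ligase that removes receptors and SMADs, was at 24.9, 13.4 and 12.6 CPM in the C1-like class and at 66.6, 50.2 and 78.7 CPM in the C2-like class, lower in the former by -1.87 ± 0.21 (adjusted p = 0.00121). SKIL, a SMAD co-repressor that TGF-beta signalling both degrades and induces, was at 66.6, 32.1 and 22.4 CPM in the C1-like class, at 82.3, 53.2 and 22.2 CPM in the C2-like class, and at 237 and 164 CPM in the C3-like class. C3-like levels lay above all others, and C1-like cells were below them by -1.84 ± 0.22 (adjusted p = 0.00148). SKI ranged from 18.8 to 36.8 CPM and SMURF1 from 7.25 to 11.5 CPM over the tested sums.

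In all, 31 of the 51 tested members passed in at least 1 comparison and 20 in none, and 14 were lower in the C1-like class than in both other classes. The matching shares of all genes were not counted, so these counts are not shown to be unusual. These 2 comparisons share the C1-like sums. Of the 24 calls between C1-like and C2-like cells, 16 held in all 15 alternative settings, and of the 21 between C1-like and C3-like cells, 10 did. The fold change of every called member had the same sign in every alternative in which the gene was tested.

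The comparison of C2-like with C3-like cells gave fewer calls and none that held throughout. C3-like cells entered it with only 2 sums, D23 and D32. BMP2, GDF6, TGFB1, LTBP1, SMAD1 and SMURF2 were higher in the C2-like class, and GDF7 and SKIL were lower, which is 6 and 2 of 51 members beside 1.27% and 1.93% of all genes tested (3.2% in either direction). Log2 fold changes were 2.61 ± 0.44 for TGFB1 and 2.59 ± 0.44 for BMP2 (adjusted p = 0.0277 for each), 5.10 ± 0.74 for GDF6 (adjusted p = 0.0196) and 2.56 ± 0.39 for LTBP1 (adjusted p = 0.0217). For SMAD1 and SMURF2 they were 1.51 ± 0.28 (adjusted p = 0.0366) and 1.24 ± 0.26 (adjusted p = 0.0496), and for GDF7 and SKIL -5.22 ± 0.69 (adjusted p = 0.0158) and -1.50 ± 0.21 (adjusted p = 0.0186). In each, both libraries had the same order. Without the library term no member passed edgeR's test, and likewise none after 10% of each sum was taken off as free RNA. At an unadjusted p under 0.05 these settings gave 10 members higher and 7 lower, and 9 higher and 6 lower, and DESeq2 with the library term called 14 members.

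Several of these calls changed when 1 library was left out. Without D23 or without D32 there is 1 C3-like sum, so a call lost or gained there cannot be told apart from the loss of a sum. Without D23, GDF6 and SMAD1 were lost, GDF7 was not tested, and ID1 (-1.66) and ID4 (-3.66) were lower in the C2-like class. Without D32, BMP2, SMAD1 and SMURF2 were lost, while TGFB2 (2.45), GREM1 (2.96) and ID3 (1.49) were higher in the C2-like class. Without D44, SMURF2 was lost (adjusted p = 0.0566) and INHBA gained (1.96, adjusted p = 0.0438).

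Levels by day were read without a test, since each day is 1 library. Between D32 and D44, which share induction and sequencing, 31 members had at least 5 CPM on either day in the C1-like class. Of these TGFBI alone differed at least 2-fold upward (9.38 and 19.5 CPM) and none downward, beside 0.827% and 0.998% of all genes. TGFB2 went from 3.97 to 7.14 CPM. Below that floor FST went from 0.79 to 3.46 CPM (176 and 918 UMIs) and BMP4 from 4.30 to 1.98 CPM. BMP2, BMP5, BMP7, INHBA, CHRD and NOG, at most 0.26 CPM on both days, were also at least 2-fold lower at D44. The share of all genes below the floor was not counted. C2-like and C3-like cells, which held more of these genes, numbered 292 and 95 at D32 and 18 and 5 at D44. The part of free RNA from them in these traces was not tested. Between D23 and D32, where day and induction cannot be told apart, BAMBI, ID1, ID3 and TGFBI were at least 2-fold higher at D32 and ACVR2A, ID4, SKIL, SMAD5 and TGFBR3 at least 2-fold lower, of 33 members. Of all genes, 4.07% were higher and 8.59% lower.

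In the minority classes more members, and more of all genes, passed the 2-fold limit between libraries, and these sums carry more counting error. In C2-like cells, D32 over D23 gave 8 of 45 members higher, with BMP4, BMP5, BMP7, NOG, ID1 and SMAD7 among them, and 9 lower, with TGFB2, GDF6 and GREM1 among them, beside 10.6% and 13.5% of all genes. In C3-like cells the counts were 6 and 11 of 47, beside 10.5% and 11.2%, with ID1, ID3 and CHRD higher and BMP5, BMP7, GDF7 and TGFB1 lower. From D32 to D44, C2-like cells had 4 of 44 members higher and 5 lower, beside 11.8% and 8.72% of all genes, and BAMBI, BMP4, BMP5 and BMP7 were among the lower. Contractile markers (5 genes) in the C2-like class summed to 2191, 1406 and 212 CPM at D23, D32 and D44. The epithelial sums given above were highest at D32, as were BMP4, BMP5 and BMP7. At D44 BMP5 was below its D23 level while the epithelial sum was above. BMP5 and BMP7 rest on 1 and 4 UMIs in the C2-like cells of D44. The part of these marker sums in the differences was not tested.

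Of 89 further genes of the pathways, 60 were tested. In C1-like cells 29 were lower and 4 higher than in the C2-like class, 21 were lower and 6 higher than in the C3-like class, and C2-like over C3-like sums gave 8 higher and 3 lower. Over all genes the lower and higher shares were 11.2% and 10.2%, 12.8% and 10.0%, and 1.93% and 1.27% in the same order of comparisons. Known TGF-beta targets made up 11 of the 29 (of 14 tested), BMP targets 5 (of 10), latent complex and activation genes 5 (of 8), antagonists 3 (of 7), ligands 3 (of 5), co-receptors 1 (of 4) and intracellular regulators 1 (of 12). Against C3-like cells the lower counts in the same order were 7, 5, 4, 3, 2, 0 and 0. The 4 higher than in C2-like cells were 1 BMP target, 1 antagonist, 1 co-receptor and 1 intracellular regulator. Higher than in C3-like cells were 2 BMP targets, 1 antagonist, 1 co-receptor, 1 intracellular regulator and 1 latent complex and activation gene.

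Large differences from C2-like cells were seen in GATA3 and POSTN. GATA3, a transcription factor, had 0 UMIs in the C1-like class of every library and 1.97, 3.09 and 5.13 CPM in the C2-like class, so that its fitted fold change depends on the prior count and is not given. POSTN, the matrix protein periostin, was at 0, 0.15 and 0.18 CPM in the C1-like class and at 34.2, 51.2 and 12.0 CPM in the C2-like class (-7.81 ± 0.75, adjusted p = 0.000613). Neither gene overlapped between these classes. Against C3-like cells the largest were SOST (-9.46 ± 0.68, adjusted p = 0.000436), an antagonist whose C3-like levels were 77.3 and 3.09 CPM at D23 and D32, GDF10 (-8.30 ± 0.52, adjusted p = 0.000188), a ligand at 16.4 and 251 CPM, and MSX2 (-7.77 ± 0.45, adjusted p = 0.000152), a BMP target at 384 and 368 CPM there and at 1.92, 1.47 and 0.78 CPM in the C1-like class. Between C2-like and C3-like cells they were SOST (-4.91 ± 0.59, adjusted p = 0.0165), POSTN (4.13 ± 0.75, adjusted p = 0.0354) and DCN, a proteoglycan that was also a marker of the C2-like class, so that its difference (3.65 ± 0.71) follows in part from the classes. Some genes were higher in the C1-like class. ACVR1C, a type I receptor for nodal and activin, was higher by 5.51 ± 0.71 (adjusted p = 0.00206) against C2-like cells. TBX2, a T-box factor of the melanocyte lineage and a listed BMP target, was higher by 3.18 ± 0.54 (adjusted p = 0.00612) against these cells. The antagonist NBL1 was higher than in C2-like and C3-like sums (1.92 and 2.24, adjusted p = 0.00486 and 0.00493). HEY1, a BMP target, was higher than in C3-like sums (2.63, adjusted p = 0.011). These higher genes were chosen after their values were seen.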

How the data were processed

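The authors deposited raw UMI counts per gene and barcode for the 3 libraries, which Cell Ranger 6.1.2 had produced on GRCh38, without normalization. The annotation release is not given in the sources used here. The study's cell limits were applied: 1000 to 7000 genes and 500 to 50000 UMIs for D23, 3000 to 9000 genes and 500 to 100000 UMIs for D32 and D44, and at most 10% mitochondrial UMIs. Kept cells held 49850363, 241341185 and 266709913 UMIs.

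A cell's marker score was the mean of ln(1 + UMIs per 10000) over the markers. C1-like cells had a melanocyte score of at least 0.5, with mesenchymal under 0.5 and neural under 0.4. C2-like cells had a mesenchymal score of at least 0.5, with melanocyte under 0.5 and neural under 0.4. C3-like cells had a neural score of at least 0.4 and a melanocyte score under 0.5, with no limit on the mesenchymal score. These limits were set after marker scores were seen, and 126, 101 and 21 cells stayed unclassed. Between 0.149% and 4.03% of cells lay within 0.1 of a limit. Doublets were called with Scrublet and kept, at the expected share since its own threshold called too few.

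UMIs of each class were added up within a library, leaving out sums of fewer than 10 cells (8 remained), and all genes were fitted with edgeR 4.0.16 (TMM, filterByExpr, library as a block, quasi-likelihood test, Benjamini-Hochberg) in R 4.3.3. The sums of 1 library come from the same droplets and libraries are the replicates, so p-values measure spread among 3 libraries from 2 inductions. Fold changes use edgeR's prior count. The filter needs enough counts in as many sums as the smallest class has, whichever the class. TGFB3, BMP2, BMP5, BMP7, GDF6, GDF7, INHBA, NOG, GREM1, CHRD and LTBP2 were too low for it in every C1-like sum. They were tested through the other classes and could not be called higher in C1-like sums. Counting intervals are exact (Poisson or binomial, 95%) and cover counting error only, and a count of 0 allows up to 3 UMIs. Levels are not compared between genes. The fit was tested on simulated data. Alternatives were DESeq2 1.42.0, other scaling, filters, marker limits, clusters (Scanpy 1.11.5, igraph 0.11.9, resolution 2.0, chosen after a resolution of 0.4 had left no C2-like cluster at D44), thinning to 5000 UMIs, removal of doublets and of 10% free RNA, and each library left out. Python 3.11.15 was used with numpy 2.4.6, scipy 1.17.1 and pandas 2.3.3.

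The 54 genes, the other lists and the markers were chosen with earlier results of these data known. Values are given per library for members past the threshold in any comparison, for TGFB1, TGFB2, BMP4, BMP5 and BMP7, for the type I and type II receptors and for ID1 to ID4, and for the 3 further pathway genes with the largest fold change past the threshold in each comparison. Of these further genes, 1 is not reported here. Other members are given by range or count. Promoters are from RefSeq on GRCh38.p14.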

Additional observations from a re-analysis of the deposited data

Results flagged for a closer look

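In 3 genes (ENG, ID3 and ID4) the order of a pair of classes turned around between libraries by at least 2-fold in each direction, with counting intervals that did not overlap. Other members turned around by less on one side, BMP7, ID1, TGFBI, BAMBI and TGFBR1 among them for C2-like over C3-like cells. The differences between libraries were not tested, since each library and class is 1 sum. The log2 ratio of ENG in C1-like over C2-like cells was -1.07 at D23, 1.87 at D32 and -1.24 at D44. In C2-like over C3-like cells the ratio of ENG was 2.60 at D23 and -2.15 at D32. For ID4 the ratio of C1-like over C3-like cells was 1.25 at D23 and -1.93 at D32, and that of C2-like over C3-like cells 1.06 at D23 and -3.73 at D32. For ID3 the ratio of C2-like over C3-like cells was 1.90 at D23 and -1.30 at D32. D23 and D32 differ in day, induction and sequencing run, which cannot be told apart, whereas D32 and D44 share the last 2.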

How the results depend on the processing

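Most values kept their direction and their side of the threshold: of 1371 values of single genes under an alternative, 1211 did so, 86 fell out of the threshold, 44 crossed into it and 30 turned sign. The cause was not tested. The number of members higher in C1-like than C2-like cells (2) was 4 with no filter on low counts, and 2 to 4 with 1 library left out. The number higher in C1-like than C3-like cells (1) was 3 with no filter, 0 when scaled by total UMIs, without the replicate block (no library term), with stricter marker limits, with clusters, after thinning and with free RNA taken off (0 to 3 at an unadjusted p under 0.05), and 1 to 2 with 1 library left out. The number higher in C2-like than C3-like cells (6) was 12 with no filter, 2 with clusters, 0 without the block and 0 with free RNA taken off, and 6 to 9 with 1 library left out. The number lower (2) was 5 with DESeq2, 9 with no filter, 4 with stricter limits, 0 without the block, with clusters and with free RNA taken off (7, 7 and 6 at an unadjusted p under 0.05), and 2 to 9 with 1 library left out. Clusters gave no C3-like class at D32 or D44, so that comparisons with C3-like cells rest on 1 sum there.

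With mesenchymal markers without collagens, no member was at least 2-fold higher and 1 was lower in C1-like cells of D44 than of D32. Ligands mostly from C1-like cells at D32 numbered 2 after thinning, in place of 4, and 3 with clusters or with free RNA taken off. At D44 their number ran from 4 of 4 after thinning to 7 of 7 with 1 cell filter for all libraries.

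Log2 values that turned sign were mostly small. For C1-like over C2-like sums TGFBR2 was 0.06 with clusters, and ACVR2A was -0.04 with DESeq2, -0.01 without the block, -0.06 without collagens, -0.01 after thinning and -0.13 to 0.37 with 1 library left out. For C1-like over C3-like sums ACVR1B was -0.08 with clusters, ACVR2B was -0.06 by total UMIs, -0.01 with DESeq2, -0.27 with clusters, -0.12 after thinning and -0.07 to 0.35 with 1 library left out, BMPR1B was -0.37 with clusters and -0.08 to 1.48, and ID4 was 1.68 with clusters and -1.69 to 1.74. For C2-like over C3-like sums, leaving out 1 library gave -4.15 to 0.80 for BMP7, -1.12 to 0.15 for TGFBR1, -0.42 to 0.34 for BMPR1A, -1.66 to 0.70 for ID1, -0.88 to 1.49 for ID3 and -3.66 to 0.75 for ID4. There clusters gave TGFBR1 0.12, BMPR1A 0.23, ID1 0.54 and ID4 0.56, thinning gave ACVR1 -0.18, ACVR1B 0.05 and BMPR1A 0.24, and no filter gave BMPR1A 0.01. The few cells of C2-like and C3-like classes at D44 limit depth there, since 3 UMIs are 5.13 CPM in the former.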
